A study of Homo sapiens with 4 samples.

Results

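The liver-enriched transcription factors described here are HNF4A, FOXA1, FOXA2, FOXA3, CEBPA, ONECUT1, PROX1 and NR5A2. They were chosen by gene name, and all 8 names were found among the 58302 genes listed in the files. The values come from mRNA-seq of HepG2, a human hepatocellular carcinoma cell line with wild-type genotype, exposed to melatonin at 1 mM or to its vehicle DMSO. The 4 conditions were DMSO for 24 h, melatonin for 24 h, DMSO for 48 h and melatonin for 48 h, each with 1 library of polyadenylated RNA, and the study asked how melatonin alters gene expression in these cells. Levels are given as the deposited FPKM, which counts sequenced fragments per 1000 bases of a gene and corrects for the size of the library. Each interval is a 95% interval from the reads behind the value (exact Poisson for a level, exact binomial for a ratio) and covers counting error only. With 1 library per condition the spread between cultures is unknown, so no difference below was tested as an effect of melatonin or of time.

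These factors form the core network that sets up and maintains hepatocyte identity. HNF4A is a nuclear receptor that occupies the promoters of a large share of liver genes, including those for apolipoproteins and clotting factors. The FOXA proteins are forkhead pioneer factors that open liver enhancers, CEBPA is a leucine zipper factor tied to terminal differentiation and growth arrest, and ONECUT1 (HNF6) is a cut-homeodomain factor that acts on HNF4A and FOXA2 in the developing liver. PROX1 is a homeodomain protein needed for hepatoblast migration, and NR5A2 (LRH-1) is a nuclear receptor of bile acid and cholesterol genes. Several of the factors bind each other's promoters, and some bind their own.

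The reads on genes numbered between 21616676 and 23086025 per library, and the share from mitochondrial genes ran from 9.77% to 19.96%, highest in the DMSO 24 h library. All 8 hepatocyte markers examined (ALB, APOA1, APOA2, TTR, SERPINA1, FGB, TF and AFP) had an FPKM of at least 1 in every library, with a summed FPKM of 8900 to 9576. Single markers went in opposite directions. At 24 h 4 of the 8 were higher with melatonin and 3 lower beyond counting error, and at 48 h 3 were higher and 5 lower. Of 5 cholangiocyte markers, KRT19, SOX9 and EPCAM were expressed and KRT7 and CFTR were at or near 0, with a summed FPKM of 152 and 139 with melatonin against 191 and 178 with DMSO (24 h and 48 h). The sum hides opposite directions. At each time 1 of the 3 expressed markers was higher with melatonin and 2 were lower, beyond counting error. Of all tested genes 50.6% at 24 h and 62.2% at 48 h differed in this way in either direction. The part of these markers in the results was not tested. Library sizes that leave out mitochondrial reads moved 2 of the 32 log2 fold changes of the factors beyond counting error, both of HNF4A. The sum of reads on genes as library size moved 10 of the 32 in this way and reversed 1 more, PROX1 between the DMSO libraries. In bulk RNA fewer expressing cells and less RNA per cell cannot be told apart. Markers of stellate cells and fibroblasts summed to an FPKM of 0.804 to 4.33, with DCN and COL1A2 at 0 in every library. PDGFRB, the platelet-derived growth factor receptor of such cells, made nearly the whole sum, at an FPKM of 1.81 in the DMSO and 0.774 in the melatonin library of 24 h, and 3.58 and 4.33 in those of 48 h. Blood endothelial markers summed to at most 1.18, and lymphatic endothelial and leukocyte markers to at most 0.141, so the markers of lymphatic endothelium were near 0 beside PROX1, which lymphatic endothelium also uses.

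HNF4A was the most abundant of the 8 factors per kilobase in every library, and NR5A2 the least. HNF4A stood at percentile 94.95 to 97.2 among 19847 protein-coding genes. The 3 FOXA genes, CEBPA and PROX1 lay at percentile 84.0 to 95.2, ONECUT1 at percentile 58.6 to 67.7 and NR5A2 at percentile 40.7 to 43.7. In the DMSO 24 h library FOXA3, FOXA2, CEBPA and FOXA1 followed HNF4A at an FPKM of 22.8, 22.8, 21.8 and 21.3, and the intervals of neighbours in this order overlapped. PROX1 came next and ONECUT1 after it. With melatonin for 48 h the order below HNF4A was FOXA3, FOXA2, FOXA1, CEBPA and PROX1, with overlapping intervals from FOXA2 to FOXA1 and from FOXA1 to CEBPA and separate ones elsewhere. In the DMSO 48 h library FOXA2 had moved up to the place after HNF4A, and CEBPA and PROX1 could not be separated.

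**Figure D1:**
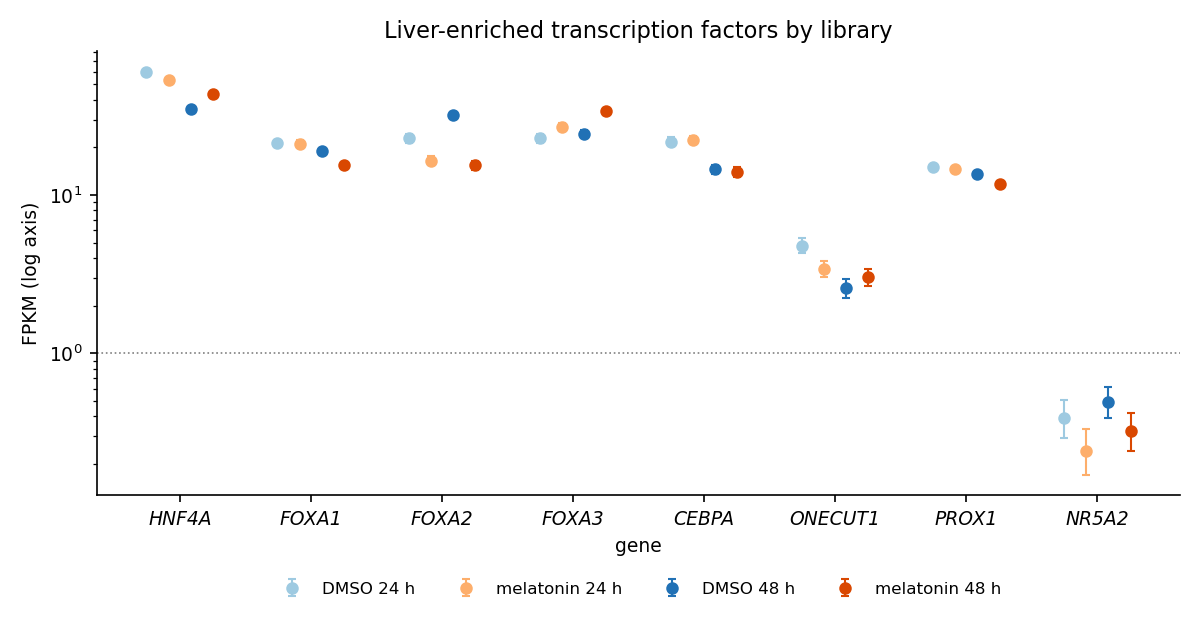
FPKM of the 8 factors in the 4 libraries on a log axis, with 95% exact Poisson intervals (smaller than the point where none is seen). The dotted line marks an FPKM of 1, below which NR5A2 lies in all 4 libraries, and FOXA2 is highest with DMSO at 48 h, at 31.9.

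HNF4A (ENSG00000101076, chromosome 20, 44355700 to 44434596, plus strand, hg38) was expressed at an FPKM of 59.5 in the DMSO and 53.7 in the melatonin library of 24 h, and 34.9 and 43.8 in those of 48 h. These values rest on 7985, 7965, 5594 and 7112 reads. The lowest level was thus that of DMSO at 48 h, and the melatonin library was below the DMSO library at 24 h and above it at 48 h. At 24 h the ratio of melatonin to DMSO was 0.903 (0.875 to 0.931), a log2 fold change of -0.14 on the FPKM + 1 scale that turned to 0.03 when the values were rescaled to TPM, where the median of all tested genes was 0.17. At 48 h the ratio was 1.26 (1.21 to 1.30), and its direction held under every setting run, with log2 fold changes from 0.27 to 0.39. The 2 ratios differed by 0.48 (0.41 to 0.54) on the log2 scale, beyond counting error. With TPM the log2 fold changes were 0.03 at 24 h and 0.27 at 48 h, closer together and of the same sign. Both are below 2-fold.

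HNF4A is transcribed from 2 promoters, of which the upstream one is known from pancreas and fetal liver and the downstream one from adult hepatocytes. A gene total cannot separate their products. The window of 250 bases before the upstream start in RefSeq (GRCh38.p14, chr20:44355449-44355698, plus strand) is shown because it holds the letters of a sequence known for another factor of the set, which describes the window and does not show binding. The capitals mark AATCAAT, the reverse complement of the ONECUT sequence ATTGATT, which ends 28 bases before the start.
HNF4A upstream start: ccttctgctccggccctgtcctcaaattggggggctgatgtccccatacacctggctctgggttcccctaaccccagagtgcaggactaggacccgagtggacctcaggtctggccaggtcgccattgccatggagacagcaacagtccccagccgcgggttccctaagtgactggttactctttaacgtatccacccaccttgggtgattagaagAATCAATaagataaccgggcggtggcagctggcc
Of 35116 RefSeq promoter windows, 1.98% held ATTGATT on either strand. Sequences of the other factors, CAAAGTCC for HNF4, TGTTTAC for FOXA, TTGCNNAA for CEBP and CAAGGTCA for NR5A2, were searched in the same way and occur in 1.02%, 2.98%, 9.05% and 1.14% of windows. Windows were found for 6 of the 8 factors, 8 windows in all, of which 2 held any of the 5 sequences.

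The noncoding gene HNF4A-AS1 runs opposite to HNF4A and overlaps it by 22961 bases. Its FPKM was 7.41 in the DMSO and 4.92 in the melatonin library of 24 h, and 1.80 and 3.26 in those of 48 h, from 36 to 124 reads. By deposited FPKM its 4 values stood in the same order as those of HNF4A, highest with DMSO at 24 h and lowest with DMSO at 48 h. With TPM HNF4A was no longer highest with DMSO at 24 h, since its log2 fold change at 24 h turned to 0.03. The ratio of melatonin to DMSO was 0.664 (0.501 to 0.878) at 24 h and 1.81 (1.19 to 2.80) at 48 h. HNF4A exceeded HNF4A-AS1 per kilobase by 8.03 times (6.73 to 9.67) in the DMSO and 10.9 times (8.88 to 13.6) in the melatonin library of 24 h, and by 19.4 times (14.0 to 27.7) and 13.4 times (10.6 to 17.4) at 48 h. Whether the reads were assigned by strand is not stated, so part of the HNF4A-AS1 reads could belong to HNF4A. At most 124 reads lay on HNF4A-AS1, against at least 5594 on HNF4A. The window before its start (chr20:44395663-44395912, minus strand), which lies inside HNF4A, is shown because it holds the HNF4 sequence CAAAGTCC, in capitals.
HNF4A-AS1: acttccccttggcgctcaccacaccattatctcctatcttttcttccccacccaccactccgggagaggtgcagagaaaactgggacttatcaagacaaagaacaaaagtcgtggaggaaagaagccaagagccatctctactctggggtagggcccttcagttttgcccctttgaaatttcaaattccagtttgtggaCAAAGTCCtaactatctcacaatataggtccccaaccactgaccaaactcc

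**Figure D2:**
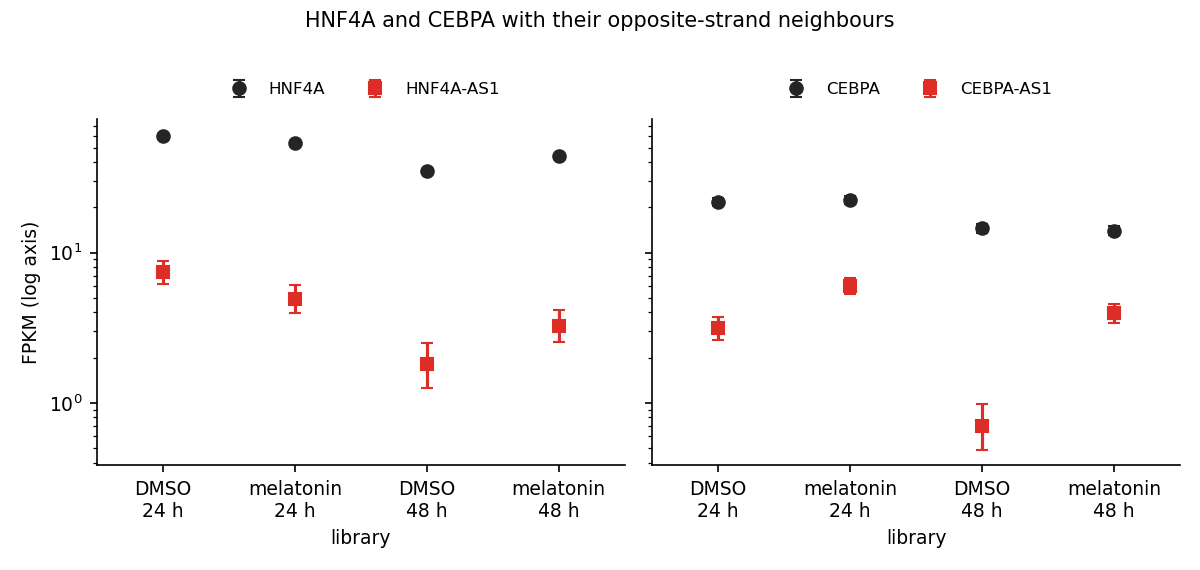
FPKM of HNF4A with HNF4A-AS1 (left) and of CEBPA with CEBPA-AS1 (right) in the 4 libraries on a log axis, with 95% exact Poisson intervals. By deposited FPKM HNF4A-AS1 is highest, at 7.41, where HNF4A is highest, while CEBPA-AS1 differs between melatonin and DMSO at both times and CEBPA hardly does.

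With melatonin FOXA2 was lower and FOXA3 higher at both times, and FOXA1 was lower at 48 h. FOXA2 (ENSG00000125798, chromosome 20, 22581005 to 22585455, minus strand) had an FPKM of 22.8 in the DMSO and 16.5 in the melatonin library of 24 h, and 31.9 and 15.5 in those of 48 h, from 1089, 869, 1821 and 894 reads. Both melatonin libraries were below both DMSO libraries, and the DMSO 48 h library was the highest. Melatonin over DMSO gave a ratio of 0.722 (0.660 to 0.790) at 24 h and 0.485 (0.447 to 0.526) at 48 h. The latter is the largest difference among the 7 factors that passed the FPKM minimum, and its log2 fold change of -0.998 on the FPKM + 1 scale missed the 2-fold threshold by a narrow margin. The direction at both times held under every setting run, with log2 fold changes of -0.47 to -0.29 for 24 h and -1.08 to -0.94 for 48 h. Both ratios rest on the DMSO library of their time, and FOXA2 was 1.40 times (1.30 to 1.51) as high in the DMSO 48 h library as in the DMSO 24 h library.

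FOXA3 (ENSG00000170608, chromosome 19, 45863989 to 45873797, plus strand) had an FPKM of 22.8 in the DMSO and 27.0 in the melatonin library of 24 h, and 24.2 and 33.8 in those of 48 h, from 919, 1199, 1162 and 1643 reads. Here both melatonin libraries were above both DMSO libraries by deposited FPKM. The ratio was 1.18 (1.08 to 1.29) at 24 h and 1.40 (1.30 to 1.51) at 48 h, in the same direction under every setting run, with log2 fold changes of at least 0.21 and 0.42. With TPM FOXA3 stood above the DMSO 24 h library by log2 fold changes of 0.41 (melatonin 24 h) and 0.58 (DMSO 48 h). The melatonin 24 h library was then below the DMSO 48 h library. FOXA1 (ENSG00000129514, chromosome 14, 37589984 to 37596059, minus strand) had an FPKM of 21.3 and 21.1 at 24 h and of 18.9 and 15.4 at 48 h (DMSO and melatonin), from 1556, 1707, 1652 and 1360 reads. FOXA1 was within counting error at 24 h, with a ratio of 0.993 (0.926 to 1.06) whose side of 1 depended on the scaling, and lower with melatonin at 48 h, with a ratio of 0.813 (0.756 to 0.874). TTC6, on the opposite strand, overlaps FOXA1 by 213 bases and held 206 to 268 reads.

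FOXA1, FOXA2 and FOXA3 share the forkhead domain and bind similar sites, so their makeup was compared within each library, where the library size does not enter. Of the summed FOXA FPKM of 66.9 in the DMSO 24 h library, FOXA1 held 31.8%, FOXA2 34.1% and FOXA3 34.1%. With melatonin at 24 h the shares were 32.7%, 25.5% and 41.8% of 64.6. With DMSO at 48 h they were 25.2%, 42.5% and 32.2% of 75.0, and with melatonin at 48 h 23.8%, 23.9% and 52.3% of 64.6. FOXA2 was thus the leading FOXA transcript with DMSO at 48 h and FOXA3 with melatonin at both times. The ratio of FOXA2 to FOXA3 was 0.998 (0.913 to 1.09) in the DMSO and 0.610 (0.559 to 0.667) in the melatonin library of 24 h, and 1.32 (1.22 to 1.42) and 0.458 (0.422 to 0.497) in those of 48 h. Set against DMSO, this ratio was 0.612 (0.540 to 0.692) times as high with melatonin at 24 h and 0.347 (0.311 to 0.388) times at 48 h. No choice of library size can change these values.

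**Figure D3:**
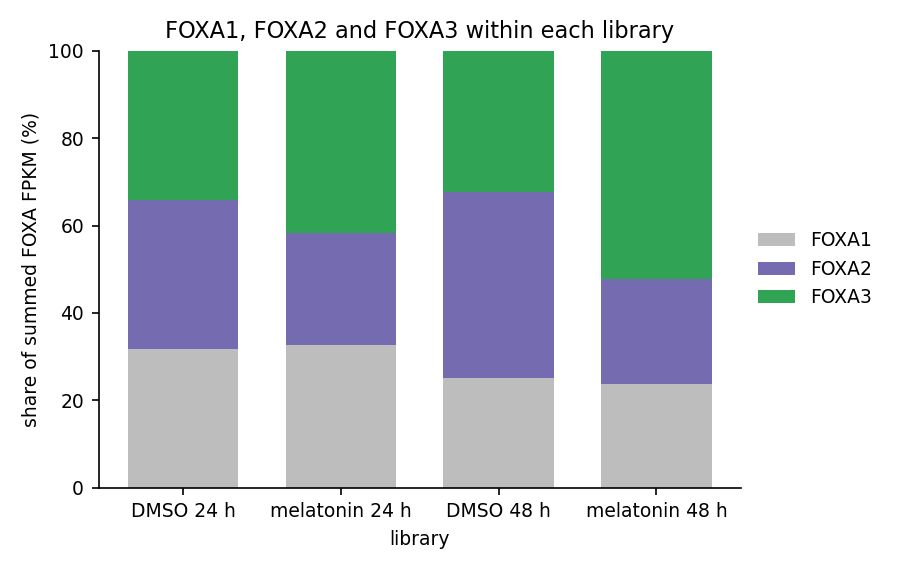
Share of FOXA1, FOXA2 and FOXA3 in their summed FPKM in each of the 4 libraries, in percent. FOXA3 takes 52.3% with melatonin at 48 h against 32.2% with DMSO, and FOXA2 takes 23.9% against 42.5%.

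CEBPA (ENSG00000245848, chromosome 19, 33299934 to 33302564, minus strand) was lower at 48 h than at 24 h, and its melatonin ratios did not leave counting error. Its FPKM was 21.8 in the DMSO and 22.4 in the melatonin library of 24 h, and 14.5 and 14.0 in those of 48 h, from 1052, 1194, 838 and 816 reads. Both libraries of 24 h were above both of 48 h. Relative to DMSO the melatonin level was 1.03 (0.945 to 1.12) at 24 h and 0.962 (0.872 to 1.06) at 48 h, and the sign of the latter depended on the scaling. The 48 h level was 0.667 times (0.608 to 0.731) that of 24 h with DMSO and 0.624 times (0.570 to 0.683) with melatonin. With TPM the log2 fold change between the DMSO libraries came to -0.08 from -0.55, and that between the melatonin libraries to -0.40 from -0.64.

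CEBPA-AS1, a noncoding gene that lies 293 bases from CEBPA on the opposite strand, varied far more. Its FPKM was 3.15 in the DMSO and 6.03 in the melatonin library of 24 h, and 0.705 and 3.93 in those of 48 h, from 127, 269, 34 and 192 reads. Both melatonin libraries were above both DMSO libraries. The melatonin to DMSO ratio was 1.92 (1.55 to 2.39) at 24 h and 5.58 (3.86 to 8.29) at 48 h, where the gene passed the 2-fold threshold with a log2 fold change of 1.53. CEBPA stood 6.92 times (5.75 to 8.39) above CEBPA-AS1 per kilobase in the DMSO and 3.71 times (3.25 to 4.25) in the melatonin library of 24 h, and 20.6 times (14.6 to 29.9) and 3.55 times (3.03 to 4.18) at 48 h. Of the other neighbours, PROX1-AS1 had an FPKM of 0.142 to 0.379 and LINC00261, which lies 2363 bases from FOXA2, had at most 8 reads in a library.

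ONECUT1 (ENSG00000169856, chromosome 15, 52756989 to 52791078, minus strand) had an FPKM of 4.78 in the DMSO and 3.42 in the melatonin library of 24 h, and 2.58 and 3.02 in those of 48 h, from 338, 267, 218 and 258 reads. The DMSO 24 h library stood above the other 3. The ratio of melatonin to DMSO was 0.715 (0.607 to 0.842) at 24 h. At 48 h it was 1.17 (0.972 to 1.41), within counting error. The 2 ratios differed by 0.71 (0.36 to 1.06) on the log2 scale. By deposited FPKM, HNF4A and ONECUT1 had the same order of libraries, from DMSO 24 h down through melatonin 24 h and melatonin 48 h to DMSO 48 h. For ONECUT1 the step between the melatonin libraries, at 0.883 times (0.741 to 1.05), was also within counting error. With TPM this step turned, to a log2 fold change of 0.09, as did that of HNF4A at 24 h, to 0.03.

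PROX1 (ENSG00000117707, chromosome 1, 213983181 to 214041502, plus strand) had an FPKM of 15.0 in the DMSO and 14.6 in the melatonin library of 24 h, and 13.6 and 11.7 in those of 48 h. Its highest deposited FPKM was 1.28 times its lowest, the smallest such range of the factors. This ranking is that of the deposited FPKM. With TPM the log2 fold change between the DMSO libraries was 0.35 for PROX1 and -0.26 for HNF4A. Melatonin over DMSO gave a ratio of 0.973 (0.921 to 1.03) at 24 h and 0.865 (0.818 to 0.915) at 48 h, from 2327 to 2656 reads per library. Only the 48 h ratio left out 1, and the 24 h value changed sign with TPM, to a log2 fold change of 0.13.

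NR5A2 (ENSG00000116833, chromosome 1, 200027602 to 200177424, plus strand) had an FPKM of 0.389 in the DMSO and 0.241 in the melatonin library of 24 h, and 0.495 and 0.322 in those of 48 h, from 54, 37, 82 and 54 reads. It was under the FPKM minimum of 1 in every library and is not among the 7 factors tested. Relative to DMSO the melatonin level was 0.620 (0.397 to 0.960) at 24 h and 0.650 (0.453 to 0.928) at 48 h, so both intervals left out 1 by a small margin. The window before the second RefSeq start of NR5A2 (chr1:200042341-200042590, plus strand) is shown because it holds the sequences of 2 factor families, in capitals from left to right GGACTTTG, the reverse complement of the HNF4 sequence, and GTAAACA, the reverse complement of the FOXA sequence.
NR5A2 second start: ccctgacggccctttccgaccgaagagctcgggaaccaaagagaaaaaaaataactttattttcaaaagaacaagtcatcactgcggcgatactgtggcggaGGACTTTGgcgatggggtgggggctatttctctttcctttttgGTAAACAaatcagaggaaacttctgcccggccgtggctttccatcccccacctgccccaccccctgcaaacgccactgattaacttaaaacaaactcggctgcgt

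Across the factors, 0 of the 7 tested passed the 2-fold threshold in either melatonin comparison. Over all tested genes 4.35% passed it at 24 h (1.42% higher and 2.93% lower) and 5.72% at 48 h (2.39% higher and 3.32% lower), a threshold set at 1 in size on the log2(FPKM + 1) scale. Genes with an FPKM under 1 in both libraries of a pair were not tested. No p-value underlies these counts, since there is no replicate. By the counting interval, which shows only that a pair of libraries differ beyond the sampling of reads, 4 of the 7 differed at 24 h. FOXA3 was higher with melatonin and HNF4A, FOXA2 and ONECUT1 were lower, against 50.6% of all tested genes. At 48 h 5 of the 7 differed, with HNF4A and FOXA3 higher and FOXA1, FOXA2 and PROX1 lower, against 62.2% of all tested genes. The median log2 fold change of the 7 factors was -0.04 at 24 h and -0.05 at 48 h, and that of all tested genes was 0.02 and -0.02.

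**Figure D4:**
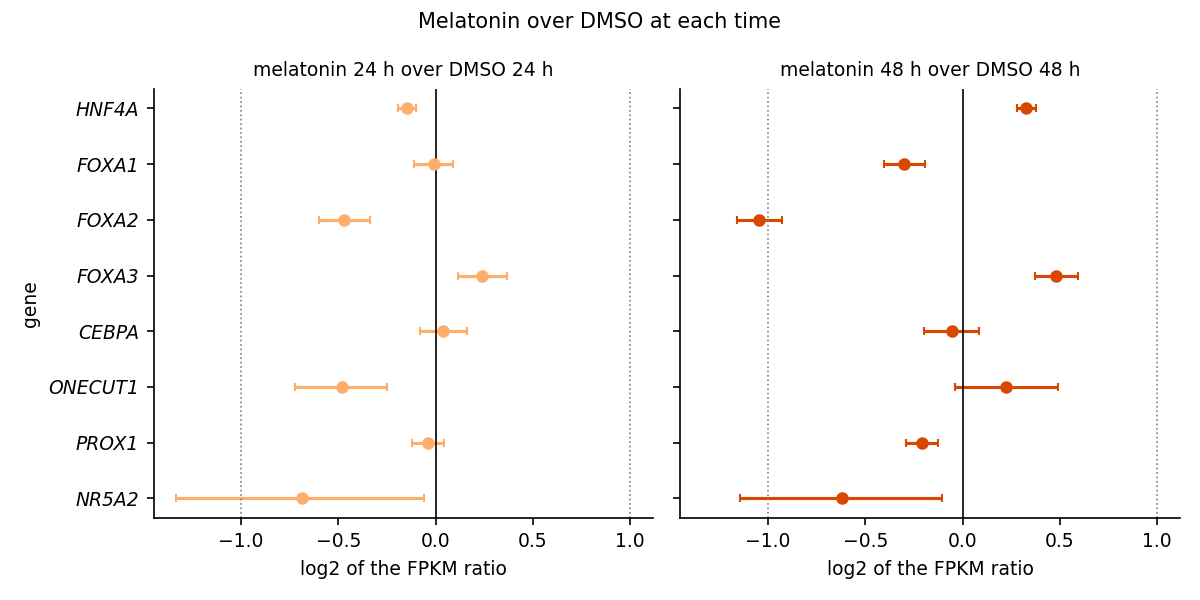
Log2 of the plain ratio of melatonin FPKM to DMSO FPKM for the 8 factors at 24 h (left) and 48 h (right), with 95% exact binomial counting intervals. Dotted lines mark 2-fold, and FOXA2 and FOXA3 lie on opposite sides of 0 at both times, at ratios of 0.485 and 1.40 at 48 h.

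Time in culture was compared between libraries of the same treatment, which share libraries with the comparisons above. Between DMSO at 48 h and at 24 h, 0 of the 7 factors passed 2-fold (7.74% of all tested genes) and 6 of 7 differed beyond counting error (64.5% of all tested genes). FOXA2 was higher at 48 h, while HNF4A at 0.586 times (0.567 to 0.607), ONECUT1 at 0.540 times (0.453 to 0.642), CEBPA, FOXA1 and PROX1 were lower. FOXA1, at 0.889 times, and PROX1, at 0.906 times, turned to log2 fold changes of 0.33 and 0.35 with TPM, which moved the median of all tested genes from 0.00 to 0.46. PROX1 also turned, to 0.02, with the sum of reads as library size. HNF4A and CEBPA kept their sign with TPM but came to log2 fold changes of -0.26 and -0.08, from -0.75 and -0.55. ONECUT1 came to -0.34 from -0.69, FOXA2 to 0.98 from 0.47 and FOXA3 to 0.58 from 0.08. Between melatonin at 48 h and at 24 h, 0 of 7 passed 2-fold (4.15% of all tested genes) and 5 of 7 differed (55.2% of all tested genes). FOXA3 was 1.25 times (1.16 to 1.35) as high at 48 h. HNF4A at 0.816 times, FOXA1 at 0.728 times, CEBPA at 0.624 times and PROX1 at 0.806 times were lower, with the same sign under every setting run. With TPM HNF4A and PROX1 came close to 0, at log2 fold changes of -0.02 and -0.03, both from -0.29. FOXA1 came to -0.18 from -0.43, CEBPA to -0.40 from -0.64 and FOXA3 to 0.59 from 0.31. FOXA2, at 0.940 times (0.855 to 1.03), and ONECUT1, at 0.883 times (0.741 to 1.05), were within counting error.

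Genes that these factors are known to regulate were then counted. Of 28 HNF4A target genes 22 could be tested at 24 h, of which APOH passed 2-fold, lower with melatonin, and 0 passed it higher. At 48 h 21 were tested. TTR, the thyroxine and retinol carrier transthyretin, passed 2-fold higher and APOH, an apolipoprotein that binds phospholipids, lower. The FPKM of TTR was 41.9 in the DMSO and 46.8 in the melatonin library of 24 h, and 50.6 and 256 in those of 48 h. Only the melatonin 48 h library stood apart, with 5.05 times (4.83 to 5.28) the DMSO level. The FPKM of APOH was 945 and 457 at 24 h and 919 and 229 at 48 h (DMSO and melatonin). The median log2 fold change of the list was -0.15 at 24 h and -0.21 at 48 h, with 13 of 22 and 11 of 21 genes lower beyond counting error and 5 and 7 higher. Of all tested genes 50.6% and 62.2% differed in either direction.

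Named by rule among the HNF4A targets that did not pass 2-fold, APOA2, the second apolipoprotein of HDL, had a log2 fold change of 0.64 at 24 h, and PCK1, a gluconeogenic enzyme, one of 0.30. PKLR, the liver pyruvate kinase, had one of -0.93 at 24 h. At 48 h LIPC, the hepatic lipase, had a log2 fold change of -0.81 and G6PC, the glucose-6-phosphatase, one of 0.82. G6PC stood at an FPKM of 7.11 with melatonin and 3.58 with DMSO at 48 h.

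Of 11 FOXA target genes 10 were tested at 24 h and 9 at 48 h, and the median log2 fold changes were 0.07 and 0.15. IGFBP1, the insulin-like growth factor binding protein of liver, passed 2-fold higher at 24 h, with an FPKM of 216 for DMSO and 450 for melatonin, and at 48 h it had a log2 fold change of 0.94. TTR passed it higher at 48 h and AFP, the fetal albumin-like protein, lower. The FPKM of AFP was 1131 in the DMSO and 985 in the melatonin library of 24 h, and 1902 and 782 in those of 48 h. The DMSO 48 h library was the highest and the melatonin 48 h library the lowest for AFP. TF, the iron carrier transferrin, had a log2 fold change of -0.93 at 48 h without passing, and APOB had one of -0.12 at 24 h.

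Of 12 CEBPA target genes 7 were tested at 24 h and 6 at 48 h, and the median log2 fold changes were 0.10 and 0.09 (the former changed sign when the FPKM minimum was 5 or was dropped). HP, the hemoglobin scavenger haptoglobin, passed 2-fold lower at 48 h, with an FPKM of 12.2 for DMSO and 5.15 for melatonin. HAMP, the iron hormone hepcidin, had log2 fold changes of 0.87 and 0.77 without passing, from 109 to 270 reads. CPS1, the first enzyme of the urea cycle, had one of 0.59 at 48 h and ALB one of -0.02. In both time comparisons all 7 tested CEBPA targets had log2 fold changes below 0, with a median of -0.56 for DMSO and -0.39 for melatonin, and 6 of the 7 left counting error in each. In these comparisons 64.5% and 55.2% of all tested genes left counting error in either direction. Of all tested genes 50.3% and 45.1% had log2 fold changes above 0. These signs are those of the deposited FPKM, and other scalings of the list were not run for time.

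The ONECUT1 list had 4 of 7 genes tested, with a median log2 fold change of 0.06 and 0.33. TTR again was the gene that passed 2-fold, at 48 h, and without the FPKM minimum or with TPM the median at 48 h turned to -0.04 or -0.27, and with an FPKM minimum of 5 it was 1.57. PFKFB1, a liver enzyme that controls glycolysis, had log2 fold changes of 0.09 and -0.18. Of 13 NR5A2 target genes 9 were tested. At 24 h NR0B2, the bile acid induced repressor SHP, passed 2-fold higher. At 48 h CCNE1, cyclin E, passed it higher with a log2 fold change of 1.13 and AFP lower. The medians were 0.00 and -0.18. SCARB1, the HDL receptor, had a log2 fold change of -0.46 and ABCG8, a sterol exporter, of -0.41 at 24 h, and APOA1 of -0.49 at 48 h.

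**Figure D5:**
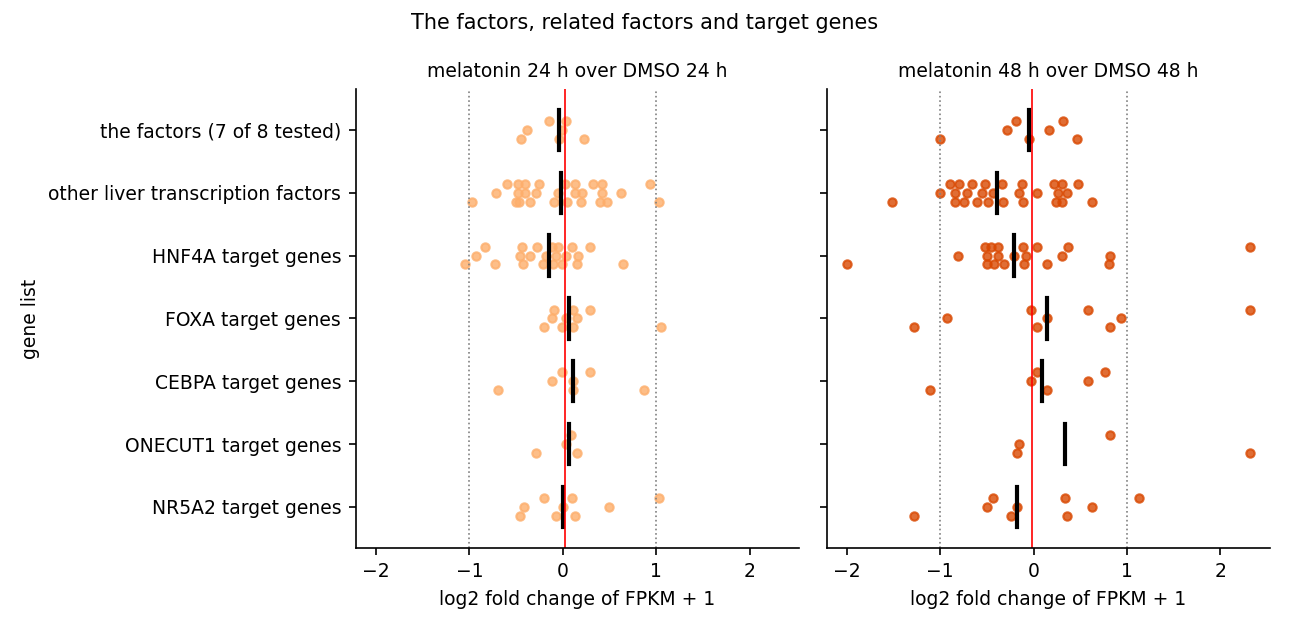
Log2 fold change of FPKM + 1, melatonin over DMSO, of each tested gene in the factor set and in the lists of related factors and target genes at 24 h (left) and 48 h (right). Black bars are list medians, the red line is the median of all tested genes, dotted lines mark 2-fold, and the list of other liver transcription factors has a median of -0.39 at 48 h.

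Among 31 other liver transcription factors 28 were tested. At 24 h 11 were higher and 12 lower beyond counting error, where 50.6% of all tested genes differed, with a median log2 fold change of -0.02 that turned to 0.06 with TPM. At 48 h 8 were higher and 18 lower beyond counting error, where 62.2% of all tested genes differed in either direction, with a median of -0.39 that stayed between -0.52 and -0.32 under the other filters and scalings. The 2-fold threshold was passed by NR0B2 at 24 h and by NR1H4 at 48 h. NR1H4 encodes FXR, the bile acid receptor. Its FPKM was 12.4 in the DMSO and 5.84 in the melatonin library of 24 h, and 14.3 and 4.33 in those of 48 h. Both melatonin libraries were below both DMSO libraries, and the ratio was 0.470 (0.416 to 0.530) at 24 h and 0.304 (0.268 to 0.344) at 48 h. NR2F6, an orphan nuclear receptor of the COUP-TF family, had an FPKM of 59.8 in the DMSO and 29.4 in the melatonin library of 48 h, and NR2F2, of the same family, had a log2 fold change of -0.72 at 24 h. PPARGC1A, a coactivator that works with HNF4A on gluconeogenic genes, had log2 fold changes of 0.94 at 24 h and 0.47 at 48 h. Between the DMSO libraries 22 of the 28 were higher at 48 h beyond counting error and 3 lower, and 64.5% of all tested genes differed in either direction. The DMSO 48 h library enters both sets of values.

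The family relatives of the factors in this list, picked out after their values were seen, lay on the same side as their relatives in some comparisons and not in others. HNF4G, the relative of HNF4A, was 0.788 times (0.659 to 0.942) as high with melatonin at 24 h, where HNF4A was 0.903 times. At 48 h HNF4G was 0.635 times (0.553 to 0.729) as high, where HNF4A was 1.26 times. ONECUT2 was 1.39 times as high at both times, with intervals of 1.25 to 1.54 and 1.28 to 1.51. CEBPB, the family member induced in the acute phase, was 1.34 times (1.27 to 1.42) as high at 24 h and 0.608 times (0.579 to 0.638) at 48 h, with CEBPA near 1 at both times. CEBPG was 1.34 times (1.24 to 1.45) and 0.789 times (0.737 to 0.844) as high, and CEBPD was lower at both times, at 0.687 times (0.577 to 0.816) and 0.553 times (0.471 to 0.648).

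For the factors with the widest range over the 4 libraries, FOXA2 (2.06 times) and NR5A2 (2.05 times), the protein-coding genes with the most similar pattern were sought among genes whose lowest read count was 50 or more. Likeness was the Euclidean distance between the 4 centred log2(FPKM + 1) values. For FOXA2 the closest of 10525 genes were KIFC3, a kinesin motor, at a distance of 0.04, PPP2R2C, a phosphatase subunit, at 0.06, and IRX3, a homeodomain factor, at 0.10. KIFC3 had an FPKM of 9.28 in the DMSO and 6.32 in the melatonin library of 24 h, and 13.1 and 5.92 in those of 48 h. IRX3 had 15.3 and 10.9 at 24 h and 22.9 and 9.89 at 48 h. PPP2R2C had only 0.847 and 0.354 at 24 h and 1.48 and 0.318 at 48 h, so its likeness depends on the 1 that is added. Each of these, like FOXA2, was highest with DMSO at 48 h. The order of the 2 melatonin libraries of FOXA2 was within counting error and turned with TPM, to a log2 fold change of 0.18 for 48 h over 24 h. For NR5A2 the closest of 10526 genes were BBS9, NCOA6 and RHOC, whose patterns on this scale were nearly flat, since an FPKM under 1 moves little after 1 is added. Over only 4 libraries many genes share an order, and the likeness is a description.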

How the data were processed

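The authors deposited FPKM per Ensembl gene of 1 HepG2 library per condition, with the gene length used. The study's methods name MapSplice on hg38 and Cufflinks, and the submitters' processing notes list Bowtie2 2.0.6, TopHat2 2.0.9, Cufflinks 2.1.1 and Cuffdiff 2.1.1. Their order and strand handling are not given in the sources used here. The product of FPKM and gene length moved in even steps within a library, 1 step per read, and 100% of values gave whole reads (tolerance 0.1 reads). Fold changes were log2((FPKM + 1)/(FPKM + 1)), called at 2-fold where either library of the pair reached an FPKM of 1. Ratios of FPKM carried exact (Clopper-Pearson) 95% intervals and levels exact Poisson intervals. With 1 library per group no test or p-value was computed.

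The genes and lists were chosen with earlier results of these data known. Named genes were all 8 factors and, per list, each gene called at 2-fold or else the 2 highest and 2 lowest, less some genes not reported here. Promoter windows came from RefSeq (GRCh38.p14). Alternatives were a pseudocount of 0.1, a plain ratio, a 1.5-fold threshold, FPKM minimums of 5 and none, TPM, median centring, 99% intervals, other library sizes and, added after seeing the data, a correction for GC content and length and the sum of reads for single genes. Scripts used Python 3.11.15, numpy 2.4.6, pandas 2.3.3, scipy 1.17.1 and matplotlib 3.10.9, and were tested on simulated data.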

Additional observations from a re-analysis of the deposited data

Results flagged for a closer look

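On the deposited scale, the log2 ratio of melatonin to DMSO had opposite signs at 24 h and 48 h for 3 of the 8 factors. The share of all tested genes with opposite signs was not computed, so this count has no background to be read against. Of the 3, CEBPA was within counting error at both times and ONECUT1 at 48 h. With TPM HNF4A had the same sign at both times, with log2 fold changes of 0.03 and 0.27. On the deposited scale the 48 h value less the 24 h value was 0.476 for HNF4A, 0.709 for ONECUT1 and -0.0951 for CEBPA. The intervals of counting error were 0.408 to 0.544 for HNF4A, 0.361 to 1.06 for ONECUT1 and -0.279 to 0.0883 for CEBPA, so the last includes 0. These differences were not tested against a spread between cultures, since each condition has 1 library.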

How the results depend on the processing

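Rescaling to TPM turned the sign of 7 of the 32 log2 fold changes of the factors. Of these 3 had been beyond counting error, HNF4A at 24 h (to 0.0265), FOXA1 (0.328) and PROX1 (0.353), the last pair between the DMSO libraries. The other 4 had been within it, FOXA1 (0.16) and PROX1 (0.13) at 24 h and FOXA2 (0.18) and ONECUT1 (0.09) between the melatonin libraries. The sum of reads as library size turned 4, PROX1 between the DMSO libraries (to 0.0179) and, within counting error, FOXA1 (0.05) and PROX1 (0.02) at 24 h and FOXA2 between the melatonin libraries (0.04). CEBPA at 48 h turned to 0.01 without mitochondrial reads and to 0.02 with the GC and length correction, which also turned FOXA1 at 24 h to 0.01. TPM moved the median of all tested genes to 0.17 at 24 h, -0.06 at 48 h, 0.46 between the DMSO libraries and 0.23 between the melatonin libraries, and changed the share of called genes that were higher from 32.7% to 45.8% at 24 h, from 45.2% to 80.7% between the DMSO libraries and from 58.9% to 72.9% between the melatonin libraries. The correction for GC content and length changed it from 32.7% to 49.7% at 24 h. With a pseudocount of 0.1, a 1.5-fold threshold or TPM, 1 factor (FOXA2) passed at 48 h in place of 0, where 12.1%, 18.7% and 13.5% of all tested genes passed. A 1.5-fold threshold passed 2 factors between the DMSO libraries (23.8% of all tested genes) and 1 between the melatonin libraries (12.8%). Counts of factors beyond counting error stayed at 4 at 24 h, at 5 or 6 at 48 h and between the DMSO libraries, and at 5 between the melatonin libraries. Of 48 list medians 13 moved by more than 0.1. The pseudocount, the plain ratio, median centring and the GC and length correction left all 32 log2 fold changes of the factors within their counting error. No paired analysis was possible because the labels give 1 library per condition and no replicate numbers, and for the same reason no library could be left out. Depth limits NR5A2 most, with 37 to 82 reads.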
